A study of Arabidopsis thaliana with 4 samples.

Results

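Transcripts of 3 galactinol synthase genes of Arabidopsis thaliana were followed in rosette leaves of a line with an antisense construct against the alternative oxidase gene AOX1a and of the wild type. The genes were GolS1 (AT2G47180, probe set 263320_at), GolS2 (AT1G56600, probe set 245627_at) and GolS3 (AT1G09350, probe set 264511_at), 3 of the 22810 probe sets on Affymetrix ATH1 arrays, on which 1 set of short oligonucleotides reads a transcript. GolS1 was chosen because its signal on these arrays was about 2-fold lower in the antisense line; its difference is therefore described and not tested. GolS2 and GolS3 were added as stress-induced isoforms, to show whether they moved the same way. The RefSeq gene table (assembly TAIR10.1) gave the same symbol for 3 of 3 loci; it holds no probe set identifiers, so the pairing of identifier and locus was taken as given. That table gives 8 loci a GolS symbol and lists galactinol synthase as a synonym for 2 more, GATL4 and GATL10, and the probe sets of the other loci were not analysed here.

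The antisense group was line AS12, described as Col-0 carrying AOX1a (At3g22370) in antisense under the CaMV 35S promoter, which drives expression in most plant tissues. The antisense RNA was pooled from 9 plants for array 1 and 8 plants for array 2. The wild-type RNA was pooled from 7 plants for array 1 and 9 plants for array 2. All plants grew on a soil-less mix with no fertilizer added, at 23 °C with a 14 h photoperiod at 350 µmol photons per square metre and second, and third- or fourth-pair leaves were cut shortly before noon 21 days after sowing. There were thus 2 arrays per group from 1 antisense line. The p-values rest on the spread between these pools, moderated towards the spread of other probe sets with similar signal. AOX1a encodes a mitochondrial oxidase that takes electrons from ubiquinol directly to oxygen; its own level and leaf marker genes were not analysed here, since no table used here ties probe sets to them. The labels could therefore not be checked against the targeted transcript.

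Galactinol synthase joins galactose from UDP-galactose to myo-inositol. The product, galactinol, is the galactose donor for raffinose and stachyose, soluble sugars that plants build up under drought, cold and heat and that are thought to protect membranes and to scavenge hydroxyl radicals. In Arabidopsis, GolS1 and GolS2 are known as genes induced by drought and salt and, through heat shock factors, by heat, whereas GolS3 is known as a cold-induced gene downstream of the CBF transcription factors.

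No direction common to the 3 genes was seen on these arrays, and differences between the genes were not tested. GolS1 was 1.94-fold lower in the antisense line, GolS3 was 3.71-fold higher on average without passing the test, and GolS2 was bright on 1 antisense array and dim on the other 3 arrays. Values are signals, linear brightness units that the authors had scaled to a common average on every array. Signals of different probe sets are not compared, because each set of oligonucleotides binds with its own strength.

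GolS1 had signals of 1697.3 and 1751.7 on antisense arrays 1 and 2, and of 3041.6 and 3660.6 on wild-type arrays 1 and 2. The antisense pair lay below the wild-type pair, with no overlap. The means were 1725 ± 38.5 in antisense leaves and 3351 ± 438 in wild-type leaves (SD, n = 2 each), and the log2 difference was -0.95. The antisense arrays were 1.03-fold apart and the wild-type arrays 1.20-fold. The 4 ratios between arrays of different lines ran from 1.74-fold to 2.16-fold lower, so the narrowest gap between the lines was wider than either gap within a line. GolS1 was picked by this difference, so neither that gap nor the lack of overlap is evidence for it. In bulk leaf RNA, fewer cells that express the gene and less transcript per cell cannot be told apart.

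**Figure D1:**
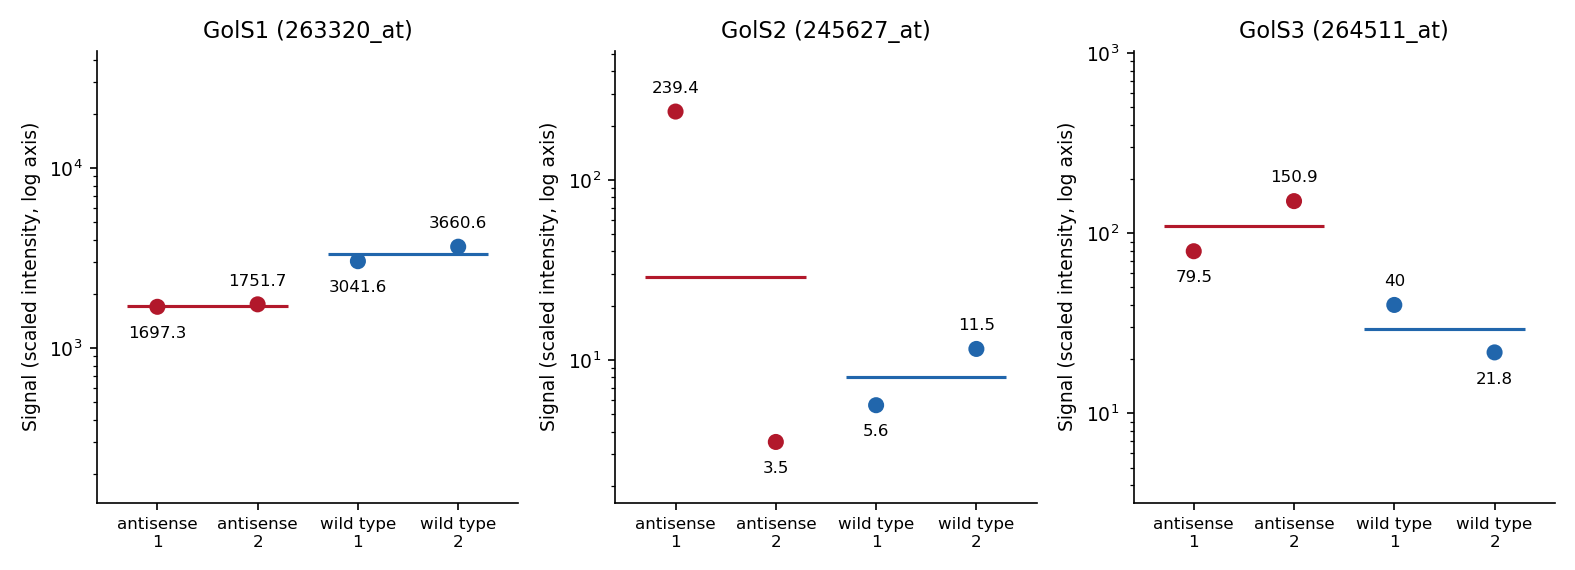
Signal of each galactinol synthase probe set on each array (points, log axis covering the same number of decades in each panel), antisense arrays in red and wild-type arrays in blue, with horizontal lines at the geometric mean of each line. GolS1 was low on both antisense arrays (1697.3 and 1751.7), GolS2 was high on antisense 1 alone (239.4), and GolS3 was higher on both antisense arrays (79.5 and 150.9) than on the wild-type arrays (40 and 21.8).

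Probe sets other than the array controls numbered 22746, and 13648 of them remained after the dimmest 40% by mean log2 signal were left out. Of the 3 genes 1 passed this filter, GolS1; GolS2 and GolS3 did not. Of the 13648, 16.1% had the same order of arrays (antisense pair below wild-type pair) and 0.176% were at least 1.5-fold lower in all 4 ratios, the second group holding 24 probe sets with GolS1 among them. Because GolS1 was picked by this difference, its place in that group is no evidence.

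**Figure D2:**
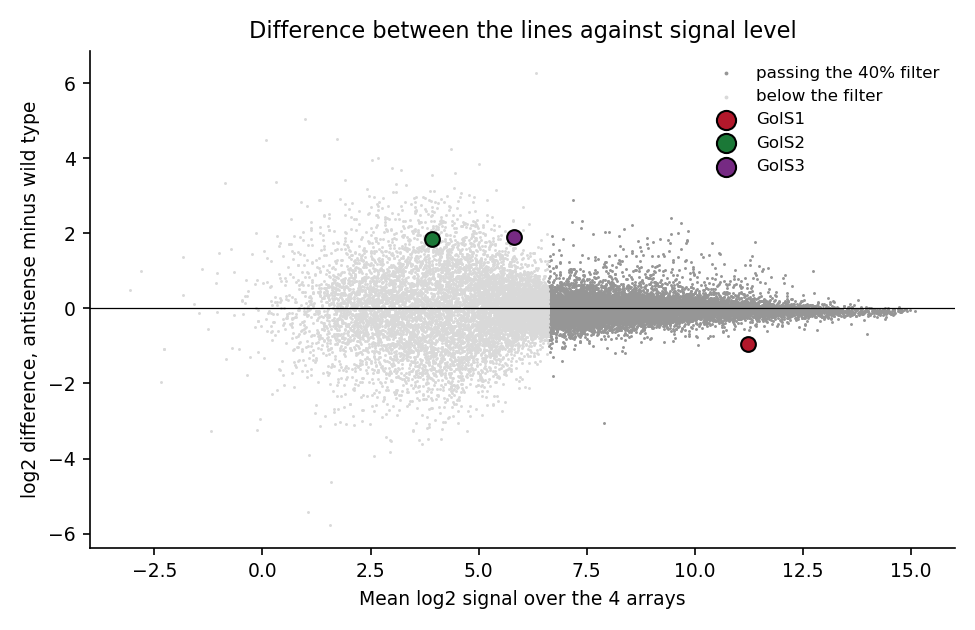
Log2 difference, antisense minus wild type, against the mean log2 signal over the 4 arrays for 22746 probe sets (grey points, the paler ones below the 40% filter), with the 3 galactinol synthase probe sets in colour. GolS1 lies at -0.95 among bright probe sets whose differences are narrow, whereas GolS2 (1.85) and GolS3 (1.89) lie among dim probe sets whose differences spread widely.

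GolS3, the cold-induced isoform, was higher on the antisense arrays, where GolS1 was lower; the contrast between the genes was not tested. Its signals were 79.5 and 150.9 on antisense arrays 1 and 2, against 40 and 21.8 on wild-type arrays 1 and 2. Both antisense arrays were above both wild-type arrays, the narrowest of the 4 ratios being 1.99-fold and the widest 6.92-fold. The means were 115.2 ± 50.5 in antisense leaves and 30.9 ± 12.9 in wild-type leaves (SD, n = 2 each). On the log2 scale the line means were 6.78 ± 0.65 and 4.88 ± 0.62 for the antisense line and the wild type (SD, n = 2 each), a difference of 1.89.

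The log2 difference of GolS3 had a standard error of 0.57 in limma, which borrows spread from other probe sets. Its own arrays alone gave 0.64. With no filter on dim probe sets, limma gave GolS3 a fold of 3.71 with a 95% interval of 1.40 to 9.81. Its unadjusted p was 0.017 and its p after Benjamini-Hochberg adjustment over 22746 probe sets rounded to 1, so the higher signal of GolS3 did not pass the threshold of 0.05. In that limma fit 799 probe sets had an unadjusted p under 0.05 and 0 passed after adjustment, a share of 0% in either direction. Separation of this kind was common among dim probe sets: of the 9098 below the filter, 14.8% had both antisense arrays above both wild-type arrays, and 5.14% were at least 1.5-fold higher in all 4 ratios, as GolS3 was. Among the 1000 probe sets closest to GolS3 in mean log2 signal the antisense arrays were 1.39-fold apart in the median and the wild-type arrays 1.41-fold. Those of GolS3 were 1.90-fold and 1.83-fold apart. Of these 1000, 253 had antisense arrays at least that far apart and 246 had wild-type arrays at least that far apart.

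The wild-type signals of GolS3 were low enough for the fold to depend on how dim values are treated. Between 26.9% and 27.9% of all probe sets read under 50 on each array, both wild-type arrays of GolS3 among them. With every signal under 50 set to 50, a limit chosen after the values were seen, the log2 difference of GolS3 was 1.13 in place of 1.89, or 2.19-fold in place of 3.71-fold.

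**Figure D3:**
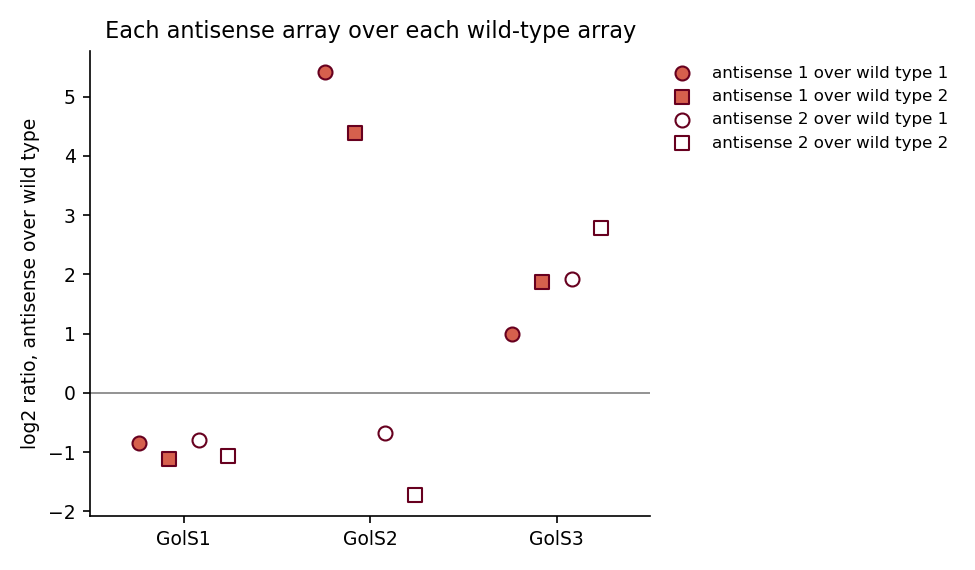
Log2 ratio of each antisense array to each wild-type array for the 3 genes (filled symbols for antisense 1, open symbols for antisense 2, circles over wild type 1, squares over wild type 2; the line at 0 marks equal signals). All 4 ratios of GolS1 are below 0 (-1.11 to -0.80) and all 4 of GolS3 above 0 (0.99 to 2.79), while those of GolS2 lie at 4.38 and 5.42 for antisense 1 and at -0.68 and -1.72 for antisense 2.

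GolS2, known as a drought-induced isoform, read 239.4 on antisense array 1 and 3.5 on antisense array 2, against 5.6 and 11.5 on wild-type arrays 1 and 2. A single antisense array was high, and the other 3 values were dim: all 3 lay under 50, so their order and the exact folds among them carry little weight. The means were 121.5 ± 166.8 in antisense leaves and 8.55 ± 4.17 in wild-type leaves (SD, n = 2 each), so the antisense SD exceeded the antisense mean. In limma's fit without a filter, GolS2 had a standard error of 1.92 in log2, where its own arrays alone gave 3.09. The log2 difference of 1.85 had a 95% interval of -2.87 to 6.57 in that fit. Its unadjusted p was 0.37 and its adjusted p rounded to 1. Without antisense 1 the difference turned to -1.20, and without antisense 2 it was 4.90, so no direction can be given for GolS2. With signals under 50 set to 50, antisense 2 equalled both wild-type arrays and the log2 difference was 1.13, all of it from antisense 1.

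The antisense arrays of GolS2 were 68.4-fold apart as deposited and 4.79-fold apart with signals under 50 set to 50, the smaller value being the one that does not rest on a signal of 3.5. With that floor, the antisense arrays were as far apart or farther in 20 of the 22746 probe sets, GolS2 included. The wild-type arrays of GolS2 were 2.05-fold apart as deposited, where the median of the 1000 probe sets closest in mean log2 signal was 2.14-fold.

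**Figure D4:**
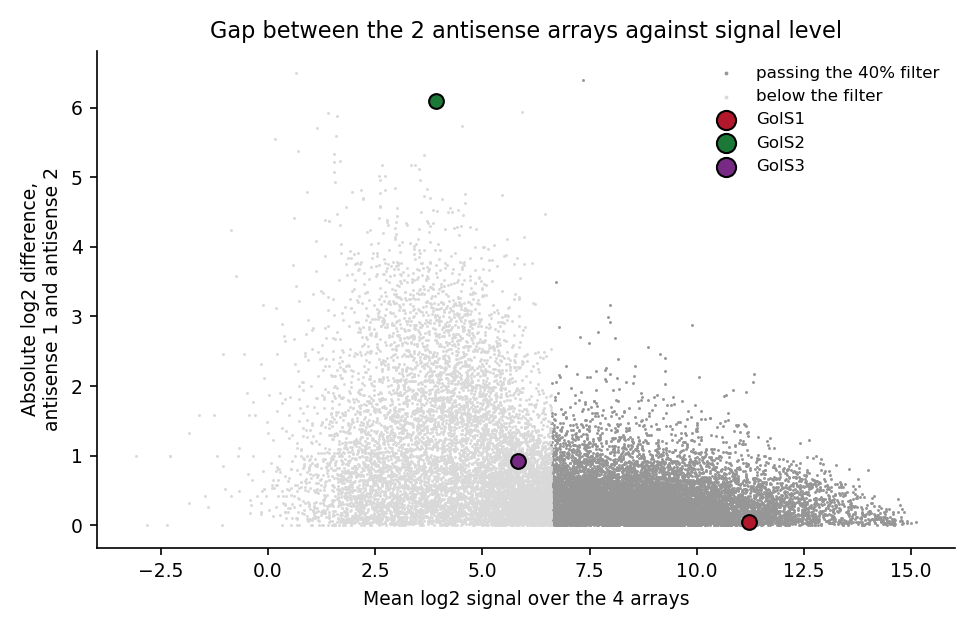
Absolute log2 difference between the antisense arrays against the mean log2 signal over the 4 arrays for 22746 probe sets (grey points, the paler ones below the 40% filter), with the galactinol synthase probe sets in colour. GolS2 lies at the upper edge of the dim probe sets (68.4-fold apart as deposited, 4.79-fold with a floor of 50), GolS3 within the cloud (1.90-fold) and GolS1 near 0 (1.03-fold).

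Antisense 1 held more lone high signals than the other arrays. Of 22746 probe sets, those with a signal on 1 array of at least 200 and at least 3-fold above each other array were counted. Antisense 1 had 26, GolS2 among them, antisense 2 had 2, and wild type 1 and wild type 2 had 0 each. The contrast was smaller under other limits. At 5-fold and a signal of 100, antisense 1 had 7, antisense 2 had 2, wild type 1 had 0 and wild type 2 had 2. At 5-fold and 200, antisense 1 had 2 and each other array 0. At 10-fold and 200, antisense 1 had 1, GolS2 itself, and each other array 0. All these limits were set after the values of GolS2 were seen. GolS1 and GolS3 were not high on antisense 1 alone: their antisense 1 signals were the lower of the antisense pair. Whether a feature of that array or of its plant pool played a part in the GolS2 signal was not tested.

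Ratios of 3' to 5' signal, which rise as RNA degrades, were read from 6 pairs of array controls for actin, GAPDH and ubiquitin. Antisense 1 was highest in 2, at 5.40 for the first actin design and 1.72 for the first GAPDH design. The other arrays read 4.11 (antisense 2), 4.75 (wild type 1) and 4.15 (wild type 2) for that actin ratio. One of the 6, the second GAPDH design, was higher on both antisense arrays (1.17 and 1.28) than on both wild-type arrays (1.08 and 1.12), and 0 were lower on both. Arrays in arbitrary order give such a split in 1 of 6 cases. The first GAPDH design overlapped, with 1.72 and 1.57 on the antisense arrays and 1.66 and 1.47 on the wild-type arrays. Any part of RNA quality in the differences of GolS1 and GolS3 was not tested.

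The arrays most alike belonged to different lines. Across the 13648 probe sets the log2 signals of antisense 1 correlated at 0.975 with wild type 2 and those of antisense 2 at 0.974 with wild type 1, against 0.958 between the antisense arrays and 0.970 between the wild-type arrays; probe sets are not independent, so these carry no p. With arrays paired in this crossed way as a block, and no filter, limma gave GolS3 an adjusted p of 0.55 and GolS2 one of 0.94; the pairing was picked from these arrays' own likeness, which by itself shrinks the residual spread.

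Probe sets with a pattern like that of GolS1 were ranked among the 13648 by the Euclidean distance between log2 signals centred on each probe set's mean over the 4 arrays. The closest was 257663_at, with signals of 75.3 and 77.8 on the antisense arrays and 134.4 and 139.3 on the wild-type arrays, at a distance of 0.191. Next was 254716_at, with 105.6 and 133.6 on the antisense arrays and 200.4 and 243.1 on the wild-type arrays, at 0.216. Both were lower in the antisense line, by 1.79-fold and 1.86-fold, which the choice of GolS1 as the pattern fixes. With 4 arrays this likeness carries no test, and neither probe set is tied to a gene here.

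**Figure D5:**
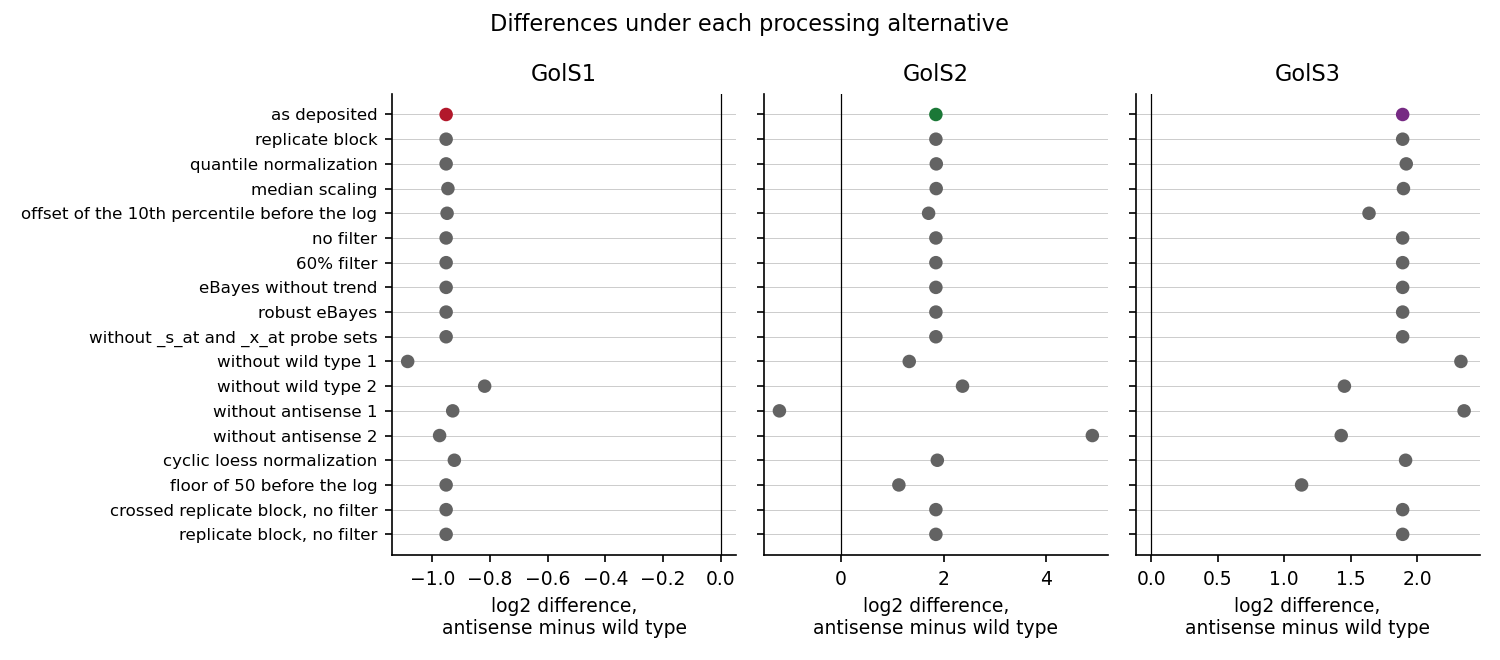
Log2 difference, antisense minus wild type, of the 3 genes as deposited (coloured points) and under 17 alternatives in processing or in the arrays kept (grey points), 1 row each, with a vertical line at 0. Rows for filters, blocks, eBayes settings and the removal of _s_at and _x_at probe sets repeat the deposited value, which they cannot change. GolS1 stays between -1.09 and -0.82 and GolS3 between 1.13 and 2.35, whereas GolS2 spans -1.20 to 4.90.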

How the data were processed

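Leaf RNA of 4 plant pools was measured on 1 Affymetrix ATH1 array each, 2 of the antisense line and 2 of the wild type. Per the labels, the authors computed signals with MicroArray Suite version 5.0; the deposited table holds 1 linear intensity per probe set and array, with a lowest value of 0.1. The authors had scaled each array: a 2% trimmed mean gave 500.05 on all 4, so the values were not scaled again, and a change in every transcript at once would not show. Detection calls were not used here, nor was the deposited quality sheet. All 4 value columns were tied to a sample by the labels.

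Signals were log2-transformed and 64 control probe sets set aside. Differences, antisense minus wild type, were fitted in R 4.3.3 with limma 3.58.1 (lmFit, eBayes with an intensity trend, Benjamini-Hochberg adjustment, threshold 0.05), leaving out the dimmest 40%. GolS2 and GolS3 lay below that filter, so their p-values come from the fit without it. An exact permutation test of 2 against 2 arrays cannot give a two-sided p below 0.333. Precision is limited by how few arrays there are.

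The members, lists and tests were chosen with earlier results of these data known. The rule for naming took the 3 genes, the raffinose pathway and AOX1a by locus, and the probe sets nearest in pattern to each gene that passed the filter, of which 2 are printed. Values of the raffinose pathway list, its regulators, the cell type markers and AOX1a were planned by locus and not computed, because no table used here pairs probe sets with those loci. No gene coordinates or sequences are given, as the files name no genome build and no sequence table was used. Alternatives were the replicate number as a block, other normalizations, an added 8.1 (10th percentile of the signals) before the log, no filter or a 60% filter, other eBayes settings, leaving out probe sets ending in _s_at or _x_at, and leaving out each array. Cyclic loess, a floor of 50, a crossed pairing and the replicate block with no filter were added after seeing the data.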

Additional observations from a re-analysis of the deposited data

How the results depend on the processing

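Filters, blocks, eBayes settings and removing _s_at or _x_at probe sets cannot move a gene's difference, so their agreement below was fixed. Leaving out 1 of 2 arrays cannot move a difference beyond the replicate spread (SD pooled over lines). For GolS1, with 0 signals under 50, only normalizations and the offset could. GolS1 stayed within that spread in 17 of 17 alternatives and was lower in each, a direction its choice fixes. GolS3 was higher in 17 of 17, which arrays that do not overlap fix wherever 1 is left out, and its difference moved beyond that spread under the floor of 50 (1.13, also the value of GolS2 there). GolS2 was higher in 16 of 17 and reversed without antisense 1 (-1.20). Leaving out each array in turn gave -1.09 to -0.82 for GolS1, -1.20 to 4.90 for GolS2 and 1.43 to 2.35 for GolS3; a lone array leaves no spread of its own. The replicate block left the differences as they were, -0.95 for GolS1, 1.85 for GolS2 and 1.89 for GolS3, since the design is balanced, and called 0 probe sets. The titles give equal replicate numbers with nothing that ties them. Deviations of same-numbered arrays correlated at -0.42 across probe sets, so a crossed pairing was added. That pairing called 44 probe sets, 42 higher and 2 lower, and with no filter 22, 21 higher and 1 lower. Picking a pairing from the same arrays shrinks the residual by itself. GolS2 and GolS3 lay below the filter, so only the fit without it could call them, and it called neither. Against 0 calls by limma as deposited, 1 lower was called under quantile normalization, median scaling and cyclic loess, and 2 (1 higher, 1 lower) with the offset; leaving out 1 array gave 1 to 12 calls, the higher ones from 0 to 11 and the lower ones from 0 to 2, and the 12 came without antisense 2. There the single remaining array is taken to vary like the rest; the cause of these shifts was not tested. The raffinose pathway count has no alternatives, as it was not computed. Dim signals limit what can be said of GolS2 and GolS3.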
